A study of Mus musculus with 4 samples.

Results

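The sterol and fatty acid synthesis genes described here are 34 of the 20296 genes in a comparison of naive mouse embryonic stem cells with epiblast-like cells. They were chosen by name, as the enzymes of 2 pathways and the regulators they share, and all 34 were found in the deposited table through their gene IDs. There are 17 enzymes of the sterol arm, 13 of the fatty acid arm and 4 regulators. RNA came from naive embryonic stem cells (nESCs) of the lines R1 and E14TG2a (E14), kept in 2i/LIF medium, and from epiblast-like cells (EpiLSCs) derived from the same 2 lines, so each state has 2 samples. EpiLSCs were collected on day 3 in N2B27 medium with activin A at 20 ng/ml and bFGF at 12 ng/ml. The labels name no genetic change in either state. The medium differs between them, so state and medium cannot be told apart, and each line was sampled 1 time per state, so the spread between samples of a state includes the difference between the lines. The labels do not describe repeat cultures of a line, and the p-values do not measure variation between such cultures.

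Cells build cholesterol from acetyl-CoA through mevalonate, farnesyl diphosphate, squalene and lanosterol. Fatty acids start from the same acetyl-CoA, which is carboxylated to malonyl-CoA, joined into palmitate and then elongated and desaturated. Both arms are transcribed under SREBP factors, encoded by Srebf1 and Srebf2. Scap carries SREBP out of the endoplasmic reticulum when sterol is low, and Insig1 holds it there when sterol is high, which is the textbook reason why sterol genes often change together.

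The values are those of the authors' DESeq2 comparison, which gives a mean over the 4 libraries, a log2 fold change and its standard error (SE) for each gene, with no value per sample. The header does not state the direction. Positive values were taken as higher in EpiLSCs because Fgf5 (8.40), Otx2 (3.90) and Dnmt3b (4.63), genes of the epiblast after implantation, had positive log2 fold changes in the authors' deposited table. The naive genes Zfp42 (-6.22), Klf4 (-6.29) and Esrrb (-8.54) had negative ones in the authors' deposited table, and Pou5f1, expressed in both states, stood at -0.19. Levels per state given below are implied: the mean was divided between the states in the ratio of the fold change, with equal weight for each library, and they carry no SD. Depth per sample is unknown. The mean normalized counts of all genes summed to 27888553.

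None of the 34 genes passed the test between the states. In the DESeq2 Wald test 0 of 17 sterol enzymes, 0 of 13 fatty acid enzymes and 0 of 4 regulators had a Benjamini-Hochberg adjusted p under 0.05, whereas 13.9% of the 16361 tested genes did (7.67% higher in EpiLSCs and 6.23% lower). The smallest adjusted p among the 34 genes was 0.22, that of Ebp. At an unadjusted p under 0.05 there were 2 of 34, Ebp and Me1, against 21.7% of tested genes. All 34 had an adjusted p, with means from 162 (Elovl1) to 27088 (Scd2) normalized counts in the authors' deposited table, so no gene dropped out for low counts.

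Missing the threshold does not show that these genes were unchanged, because the test could see large changes only. With their standard errors (0.608 to 1.29), the genes would have needed a log2 fold change of at least 1.64 (Acaca) to 3.47 (Mvd) in size to be called, and the median needed was 1.90. The largest values reached were 1.52 (Mvd) upward and -1.28 (Acss2) downward in the authors' deposited table. For 10 of the 34 genes the 95% interval lay wholly within a 4-fold change either way, against 52.4% of the 10713 tested genes whose mean was at least 100. In 27 of 34 the interval still held a 2-fold rise, and in 21 a 2-fold fall.

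**Figure D1:**
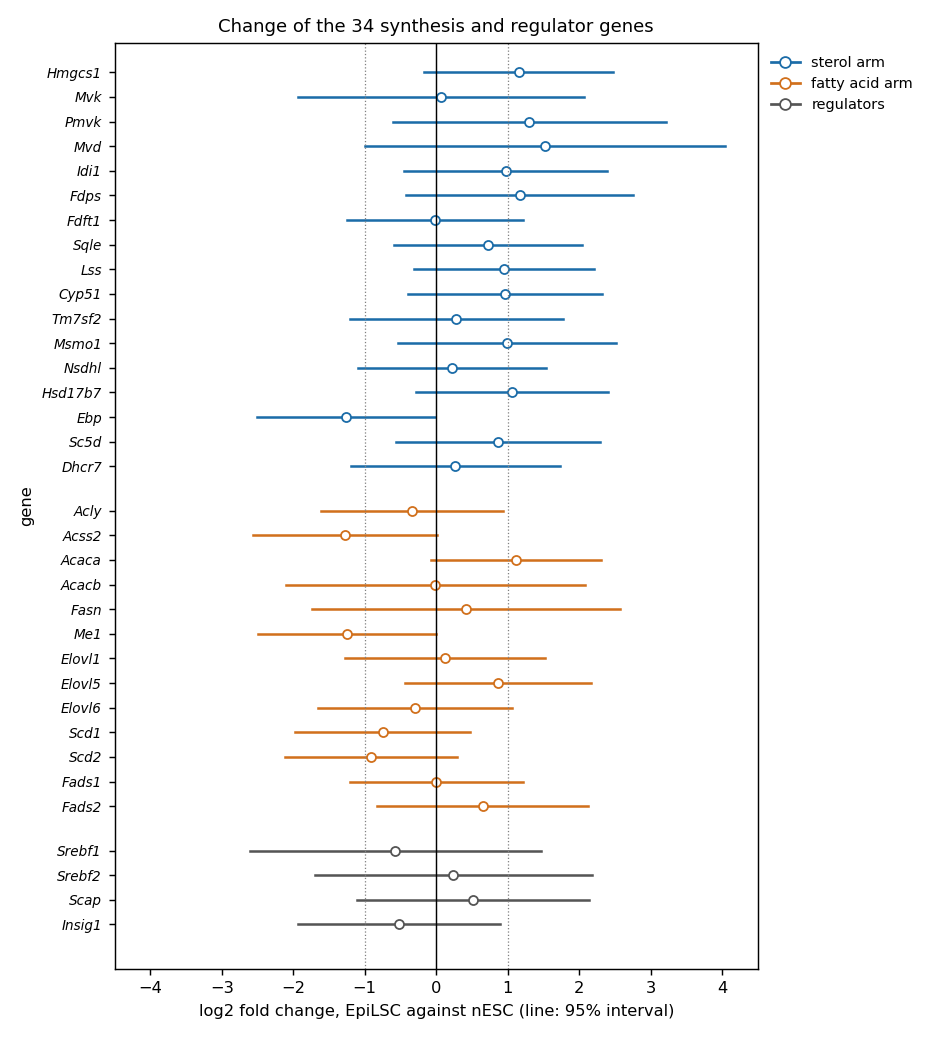
Log2 fold change of EpiLSCs against nESCs for each of the 34 genes (points) with its 95% interval (lines), by arm. Dotted lines mark a 2-fold change either way. No gene passed the test, so all points are open. In the sterol arm 15 of 17 points lie right of 0, and in the fatty acid arm 6 of 13.

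In the sterol arm 15 of 17 enzymes had a positive log2 fold change, with a median of 0.95, while 51% of all tested genes were above 0 and their median was 0.02. The 17 values come from the same 4 libraries and are not independent of each other. A mean weighted by precision gave 0.58 in place of the median of 0.95.

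The first part of the arm, from acetyl-CoA units to farnesyl diphosphate, had 6 of 6 positive values and a median of 1.16. Hmgcs1, which makes HMG-CoA for the mevalonate pathway, was the most abundant sterol gene, with implied levels of 13706 normalized counts in nESCs and 30561 in EpiLSCs. Its log2 fold change was 1.16 (SE 0.68, 95% interval -0.17 to 2.48, adjusted p 0.339), as the authors' deposited table gives it. Its interval thus ran from a 1.12-fold lower to a 5.58-fold higher level. Mevalonate is then phosphorylated by Mvk (0.07, SE 1.02) and Pmvk (1.30, SE 0.97) and decarboxylated by Mvd (1.52, SE 1.29), all log2 fold changes of the authors' deposited table. These 3 genes had wide errors, and the value of Mvd was little larger than its error. Idi1, the isomerase of the isoprenoid units, had implied levels of 5471 in nESCs and 10732 in EpiLSCs (log2 fold change 0.97, SE 0.73, from the authors' deposited table). Fdps, which joins the units to farnesyl diphosphate, went from an implied 147 to 331 normalized counts (1.17, SE 0.81, from the authors' deposited table).

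The middle of the arm turns farnesyl diphosphate into the first sterol. Fdft1, squalene synthase, had nearly equal implied levels of 4230 in nESCs and 4196 in EpiLSCs, and the interval of its log2 fold change was -1.24 to 1.22. Sqle, the squalene epoxidase and a rate-limiting step, had implied levels of 3622 and 5981 (0.72, SE 0.67, from the authors' deposited table). Lss, the cyclase that makes lanosterol, had 2187 and 4220 (0.95, SE 0.65, from the authors' deposited table).

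From lanosterol to cholesterol 7 of 8 enzymes had positive values, with a median of 0.57. The demethylation enzymes Cyp51 (0.96, SE 0.69) and Msmo1 (0.99, SE 0.78) and the ketosteroid reductase gene Hsd17b7 (1.05, SE 0.69) had the higher values in the authors' deposited table. Sc5d, the sterol desaturase, followed with 0.86 (SE 0.73), from the authors' deposited table. The reductase genes Tm7sf2 (0.28, SE 0.76) and Dhcr7 (0.27, SE 0.75) and the dehydrogenase gene Nsdhl (0.22, SE 0.67) lay near 0 in the authors' deposited table. Ebp, the sterol isomerase, was the exception of this stretch: its implied level was 654 in nESCs and 272 in EpiLSCs, with a log2 fold change of -1.27 (SE 0.64, unadjusted p 0.0468, adjusted p 0.22), as the authors' deposited table gives it. That is a 2.41-fold lower level that did not survive adjustment.

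The fatty acid arm had no common direction: 6 of 13 enzymes were above 0 and 7 below, with a median log2 fold change of -0.01. This median became 0.02 when values were centred on the median of tested genes whose mean was at least 100 (-0.03). Among the enzymes that supply acetyl-CoA, Acly, which splits citrate, had implied levels of 15826 in nESCs and 12514 in EpiLSCs (-0.34, SE 0.65, from the authors' deposited table). Acss2, which activates acetate in the cytosol and nucleus, had 794 and 327 (-1.28, SE 0.65, adjusted p 0.233, from the authors' deposited table). Me1, the malic enzyme that supplies NADPH, had 1943 and 819 (-1.25, SE 0.63, adjusted p 0.228, from the authors' deposited table). These 2 genes and Ebp were the only ones of the 34 below -1 on the log2 scale.

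Acetyl-CoA carboxylase is made from 2 genes with different abundance. Acaca, the form used for synthesis in the cytosol, had implied levels of 5106 in nESCs and 11071 in EpiLSCs. Its log2 fold change was 1.12 (SE 0.61, 95% interval -0.07 to 2.31, adjusted p 0.28), as the authors' deposited table gives it. Acacb, the form at mitochondria that restrains fatty acid oxidation, had 331 and 327 (-0.01, SE 1.07, from the authors' deposited table). Fasn, which builds palmitate, had 7879 and 10496, but its error was wide (0.41, SE 1.10, from the authors' deposited table) and its interval ran from 3.34-fold lower to 5.93-fold higher.

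The stearoyl-CoA desaturase genes, which introduce the first double bond, both had lower implied levels in EpiLSCs without passing the test. Scd2 had 35396 normalized counts in nESCs and 18781 in EpiLSCs (-0.91, SE 0.61, adjusted p 0.456, from the authors' deposited table). Scd1 had 10361 and 6161 (-0.75, SE 0.62, adjusted p 0.622, from the authors' deposited table). The desaturases of polyunsaturated fatty acids, Fads1 (0.00, SE 0.62) and Fads2 (0.65, SE 0.76), had values at or above 0 in the authors' deposited table. For Fads1 the interval was -1.20 to 1.21, among the narrowest of the 34 genes. Of the elongases, Elovl5, which acts on polyunsaturated chains, stood at 0.86 (SE 0.67), Elovl6, which extends palmitate, at -0.30 (SE 0.69) and Elovl1, for very long saturated chains, at 0.13 (SE 0.71), all from the authors' deposited table.

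The arms differed as a description only, since a test of their difference needs values per sample. The sterol arm had 5 of 17 genes at a log2 fold change of 1 or more and 1 at -1 or less, and the fatty acid arm had 1 and 2 of 13. Summed over the arm per kb of exon, the implied sterol level was 9782 normalized counts in nESCs and 18085 in EpiLSCs, a ratio of 1.85. For the fatty acid arm it was 16665 and 12868, a ratio of 0.772. Without Hmgcs1 the sterol ratio was 1.68, and without Scd2 the fatty acid ratio was 0.926, so the fatty acid ratio rested largely on Scd2.

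The regulators gave no common direction. Srebf2, the factor that chiefly drives sterol genes, had implied levels of 1894 normalized counts in nESCs and 2236 in EpiLSCs (0.24, SE 0.99, from the authors' deposited table). Srebf1, whose products chiefly drive fatty acid genes, had 882 and 593 (-0.57, SE 1.04, from the authors' deposited table). Scap stood at 0.51 (SE 0.83) and Insig1, itself a sterol-responsive gene, at -0.52 (SE 0.72), both from the authors' deposited table. The value of Insig1 was thus below 0, while 15 of the 17 sterol enzymes were above it. For Srebf1, Srebf2 and Scap the interval held a 2-fold change in both directions. Transcript levels say nothing of the cleavage of SREBP.

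Per kb of exon, Scd2 (4958 normalized counts) and Hmgcs1 (4818) had the highest mean level of the 34 genes, followed by Acly (2684), Idi1 (2311) and Insig1 (2015). Scd2 and Hmgcs1 made up 15.9% and 15.5% of the summed level per kb. At the low end were Acss2 (55.2 per kb), Scap (37.5) and Acacb (34.1), although Acss2 stood at 155 per kb, rank 27 of 34, when the longest transcript was the length. Within families, Scd2 was 2.94 times Scd1 per kb, Acaca 13.9 times Acacb and Srebf2 2.20 times Srebf1. With the longest transcript as the length, Acaca was 22.7 times Acacb. These ratios are of means over all 4 libraries and have no error. The order by implied level differed between states at the top: Scd2 was first in nESCs (6478 per kb, with Hmgcs1 at 2983), and Hmgcs1 in EpiLSCs (6652 per kb, with Scd2 at 3437). As neither gene passed the test, the exchange is a description of these libraries.

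**Figure D2:**
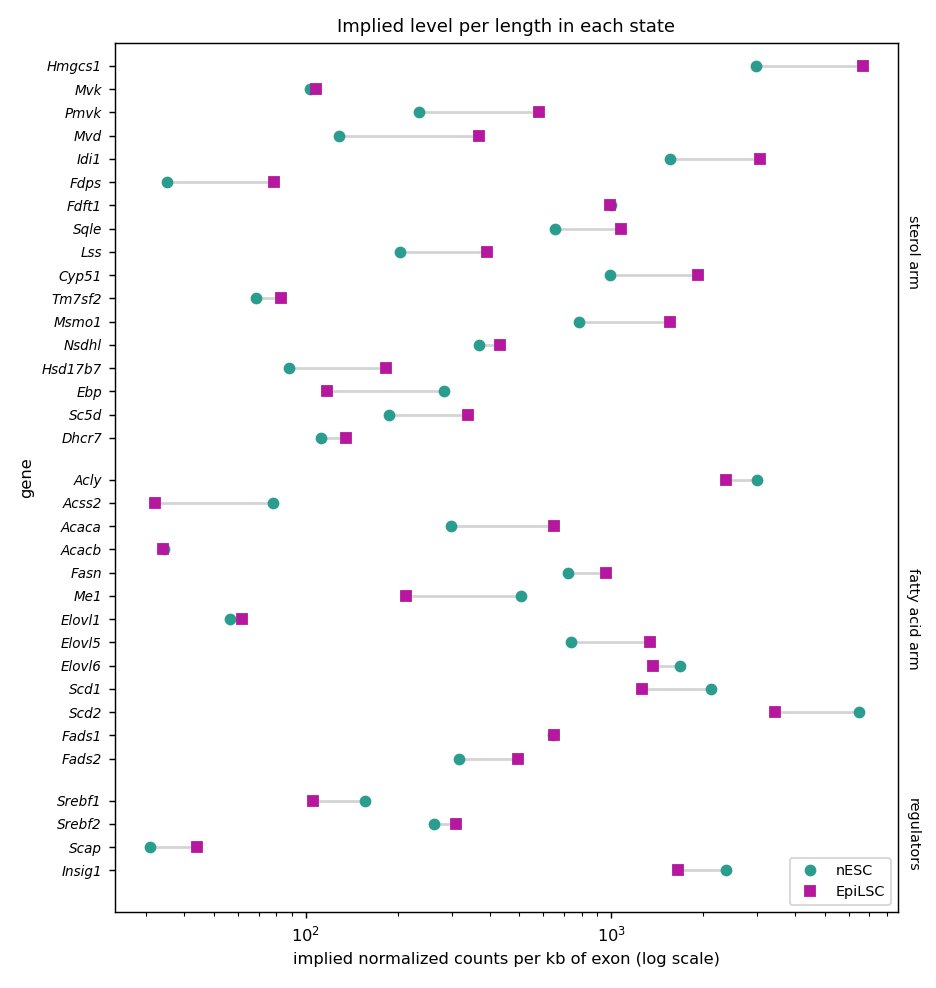
Implied normalized counts per kb of exon (log scale) in nESCs (circles) and EpiLSCs (squares) for each of the 34 genes, by arm. Levels carry no error bars because the table has no value per sample. Hmgcs1 lies at 2983 and 6652 per kb and Scd2 at 6478 and 3437.

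Promoter sequence was one property that the choice of genes had not used. RefSeq windows on GRCm38.p6, from 250 bases before to 50 after a start site, were at hand for 28 of the 34 genes, and not for Fdps, Fdft1, Sqle, Scd1, Scd2 and Fads1. They were searched on both strands, in every window of a gene, for the core letters of the sterol regulatory element that SREBP binds (TCACNCCA), the CCAAT box of the cofactor NF-Y (CCAAT), the GC box of Sp1 (GGGCGG) and an E-box (CACGTG). None of the 4 motifs contains another, although matches may overlap. CCAAT was in 14 of 14 sterol arm genes, 7 of 10 fatty acid genes and 3 of 4 regulators, against 43% of 12079 tested genes with a window. The core TCACNCCA was in 3 of 28 genes, Hmgcs1, Msmo1 and Srebf2, against 4.66% of tested genes. GGGCGG was in 13 of 14 sterol genes and 5 of 10 fatty acid genes (66.3% of tested genes), and CACGTG in 6 of 28 (11.3%). Among all 32851 windows 37.4% held CCAAT, 4.36% the core, 35.7% GGGCGG and 7.15% CACGTG. A match is a run of letters and not evidence of binding.

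The windows of the 3 genes with the core are shown, with that of Fasn as a fatty acid enzyme that has CCAAT and no core. Capitals mark TCACNCCA and CCAAT on either strand (ATTGG is CCAAT on the other strand), and each window runs 5′ to 3′ on the strand of its gene.
Hmgcs1, chr13:119690101-119690400, plus strand: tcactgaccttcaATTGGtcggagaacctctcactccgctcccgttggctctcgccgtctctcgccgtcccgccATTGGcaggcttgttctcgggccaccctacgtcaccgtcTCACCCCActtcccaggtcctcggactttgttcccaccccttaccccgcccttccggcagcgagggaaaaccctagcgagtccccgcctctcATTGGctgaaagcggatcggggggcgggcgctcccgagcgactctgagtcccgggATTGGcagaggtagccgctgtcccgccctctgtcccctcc
Msmo1, chr8:64733529-64733828, minus strand: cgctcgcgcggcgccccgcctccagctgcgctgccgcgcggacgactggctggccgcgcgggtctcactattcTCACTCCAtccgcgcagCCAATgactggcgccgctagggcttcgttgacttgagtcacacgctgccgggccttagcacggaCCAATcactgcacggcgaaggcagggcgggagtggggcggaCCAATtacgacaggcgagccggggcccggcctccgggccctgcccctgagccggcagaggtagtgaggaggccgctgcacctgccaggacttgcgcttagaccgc
Srebf2, chr15:82147019-82147318, plus strand: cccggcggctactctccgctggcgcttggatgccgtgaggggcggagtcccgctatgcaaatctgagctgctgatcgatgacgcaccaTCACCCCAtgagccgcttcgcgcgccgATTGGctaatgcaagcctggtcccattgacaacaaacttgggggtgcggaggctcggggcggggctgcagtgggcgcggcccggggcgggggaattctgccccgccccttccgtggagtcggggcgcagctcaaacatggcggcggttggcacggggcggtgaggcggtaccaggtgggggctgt
Fasn, chr11:120824498-120824797, minus strand: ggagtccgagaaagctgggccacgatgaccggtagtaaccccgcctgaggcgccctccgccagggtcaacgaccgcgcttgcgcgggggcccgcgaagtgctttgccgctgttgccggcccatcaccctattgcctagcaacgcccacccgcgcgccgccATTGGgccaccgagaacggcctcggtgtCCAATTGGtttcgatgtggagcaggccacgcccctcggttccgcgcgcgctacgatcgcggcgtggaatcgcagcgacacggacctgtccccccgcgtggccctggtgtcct
In the Hmgcs1 window the core begins at position 114 of 300, with CCAAT matches beginning at positions 14, 75, 206 and 261. The Msmo1 core begins at position 74 and is followed by CCAAT at positions 91, 155 and 196. The Srebf2 core at position 89 is followed by CCAAT at position 116. Beside these windows, the log2 fold changes were 1.16 for Hmgcs1, 0.99 for Msmo1, 0.24 for Srebf2 and 0.41 for Fasn in the authors' deposited table, with intervals that overlap.

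The precision of the fold change varied among the 34 genes with the GC content of the transcript. The 8 genes with a GC content of 56% or more (Mvk, Pmvk, Mvd, Acacb, Fasn, Srebf1, Srebf2 and Scap) had standard errors from 0.831 to 1.29, and the 26 others from 0.608 to 0.809. The 2 ranges did not overlap. This limit was set after the values were seen. Of 5 other sterol and lipid genes at or above it with a mean of at least 100, 2 had an error above 0.809. Below it, 2 of 43 such genes did. Fasn had a larger error than 99% of the 500 tested genes nearest to it in mean, Mvd than 98.6% and Srebf2 than 97.8%, whereas Acaca was above only 1% and Scd2 above 3.2%. Over the 34 genes the Spearman coefficient between GC content and standard error was 0.49, with points that share the same 4 libraries. Among tested genes whose mean was at least 100, 72.2% of 1534 genes at or above 56% GC had an error above 0.809, against 13.2% of 9156 below it. In that set the coefficient was 0.30, and -0.07 for the 4944 genes whose mean was at least 1000. Between GC content and the log2 fold change it was -0.10 over the 34 genes, -0.11 in the sterol arm and 0.31 in the fatty acid arm. Over tested genes it was -0.16 at a mean of at least 100 and -0.25 at a mean of at least 1000. The part of GC content in the values of single genes was not tested. The 95% intervals were widest for Mvd, Fasn, Acacb, Srebf1 and Mvk.

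**Figure D3:**
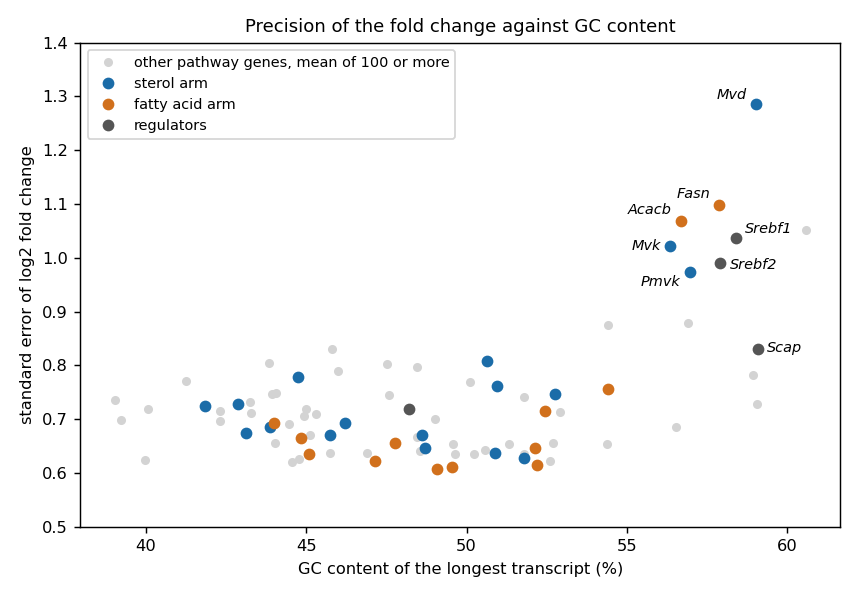
Standard error of the log2 fold change against the GC content of the longest transcript (%), for the 34 genes by arm and for other sterol and lipid genes whose mean was at least 100 (grey). The 8 named genes at 56% GC or more have errors from 0.831 to 1.29, above the highest error of the 26 others (0.809). Of the 5 grey points at 56% GC or more, 2 lie above 0.809.

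Some of the 34 genes share sequence with other annotated genes. Reads from a stretch with an identical copy elsewhere in the genome cannot be assigned to 1 gene. In 7 genes 10% or more of the 50-base words of the longest transcript also occur, on either strand, in another gene's transcripts. These are Acaca (52.6%, with Gm5182), Me1 (32.8%), Fdft1 (30.7%, mostly with Ctsb, whose exons overlap it on the opposite strand), Idi1 (30.5%), Hmgcs1 (13.6%), Scap (13.1%) and Fdps (11.7%). For Hmgcs1, Scap and Fdft1, exons of another gene overlap on the opposite strand by 12.1%, 13.2% and 18.3% of their exon length. Stranded counting can separate such overlaps, but the setting used is unknown. For Hmgcs1 (Gm48342) and Scap (5830462I19Rik), the overlapping gene is also the only one that shares their words. On the same strand, exons of Gm43738 overlap Fdps by 26.7% of its exon length, and those of Vps51 overlap Tm7sf2 by 12.1%. Stranded counting cannot separate these. The effect of sharing and of overlap on the levels was not tested. Fdps had the lowest mean of the sterol arm, 239 normalized counts in the authors' deposited table. Scd1 and Scd2 shared 4.66% and 4.01% of their words, chiefly with each other and with Scd3 and Scd4. Without the genes at 10% or more the median log2 fold change was 0.86 in the sterol arm and -0.01 in the fatty acid arm.

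Of 55 tested genes that make or handle sterol and fatty acids outside the 34, 9 were called (16.4%), near the 13.9% of all tested genes. None of 7 other measured genes of sterol and isoprenoid synthesis passed the DESeq2 Wald test. An unadjusted p under 0.05 was found for 0 of the 7, against 21.7% of all tested genes, and 7 genes are few for such counts. Their log2 fold changes ran from -0.49 (SE 0.70) for Pdss1, an enzyme of the ubiquinone side chain, to 0.64 (SE 0.72) for Ggps1, which makes geranylgeranyl diphosphate, both from the authors' deposited table.

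Of 16 genes of sterol sensing, uptake, storage and efflux 1 rose and 2 fell, 18.8%, also near the 13.9% of all tested genes. Soat1, which esterifies cholesterol for storage, rose 9.87-fold, from an implied 1319 to 13024 normalized counts (log2 fold change 3.30, SE 0.75, adjusted p 0.000204, from the authors' deposited table). Abca1, which exports cholesterol from the cell, fell 29.2-fold, from 1710 to 58.5 (-4.87, SE 0.80, adjusted p 7e-08, from the authors' deposited table). Npc2, which carries cholesterol out of lysosomes, fell (-1.93, SE 0.65, adjusted p 0.0258, from the authors' deposited table). Its partner Npc1 (0.01, SE 0.64) and Abcg1, another exporter of sterols (-0.98, SE 0.66), were not called by the authors' deposited table.

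Of 32 tested genes of fatty acid activation, elongation, desaturation and lipid assembly 3 rose and 3 fell, 18.8%, where 7.67% of all tested genes rose and 6.23% fell. Acss1, which activates acetate in mitochondria, fell 36-fold, from an implied 2429 to 67.5 normalized counts (-5.17, SE 0.74, adjusted p 3.17e-10, from the authors' deposited table). Its cytosolic counterpart Acss2, given above, did not pass, and the difference between them was not tested. Fabp5, a fatty acid carrier, rose 12.9-fold (3.69, SE 0.70, adjusted p 4.51e-06, from the authors' deposited table), with 4.42% of its sequence shared with copies such as Gm6166. The elongase gene Elovl4, for very long chains, rose (3.11, SE 0.71, adjusted p 0.000234) and Elovl7 fell (-2.25, SE 0.70, adjusted p 0.012, both from the authors' deposited table). None of the 3 elongases among the 34 genes passed. Acsl4, which activates arachidonic acid, rose (2.49, SE 0.73, adjusted p 0.00743) and Fads6, a desaturase family gene, fell (-2.04, SE 0.71, adjusted p 0.0332, both from the authors' deposited table).

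A stricter test, for a change of more than 2-fold, was passed by 6.91% of tested genes, and 5 of these 9 calls stood. They were those of Abca1 (adjusted p 7.12e-05, range 4.64e-08 to 7.12e-05 over the alternatives), Soat1 (0.033, range 0.000169 to 0.033), Acss1 (1.68e-06, range 2.08e-10 to 1.68e-06), Fabp5 (0.00325, range 3.29e-06 to 0.00325) and Elovl4 (0.0441, range 0.000194 to 0.0441). The calls of Npc2, Elovl7, Acsl4 and Fads6 were lost there. At a relaxed adjusted p under 0.1, which 16.6% of tested genes met, 13 of the 55 genes were called.

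**Figure D4:**
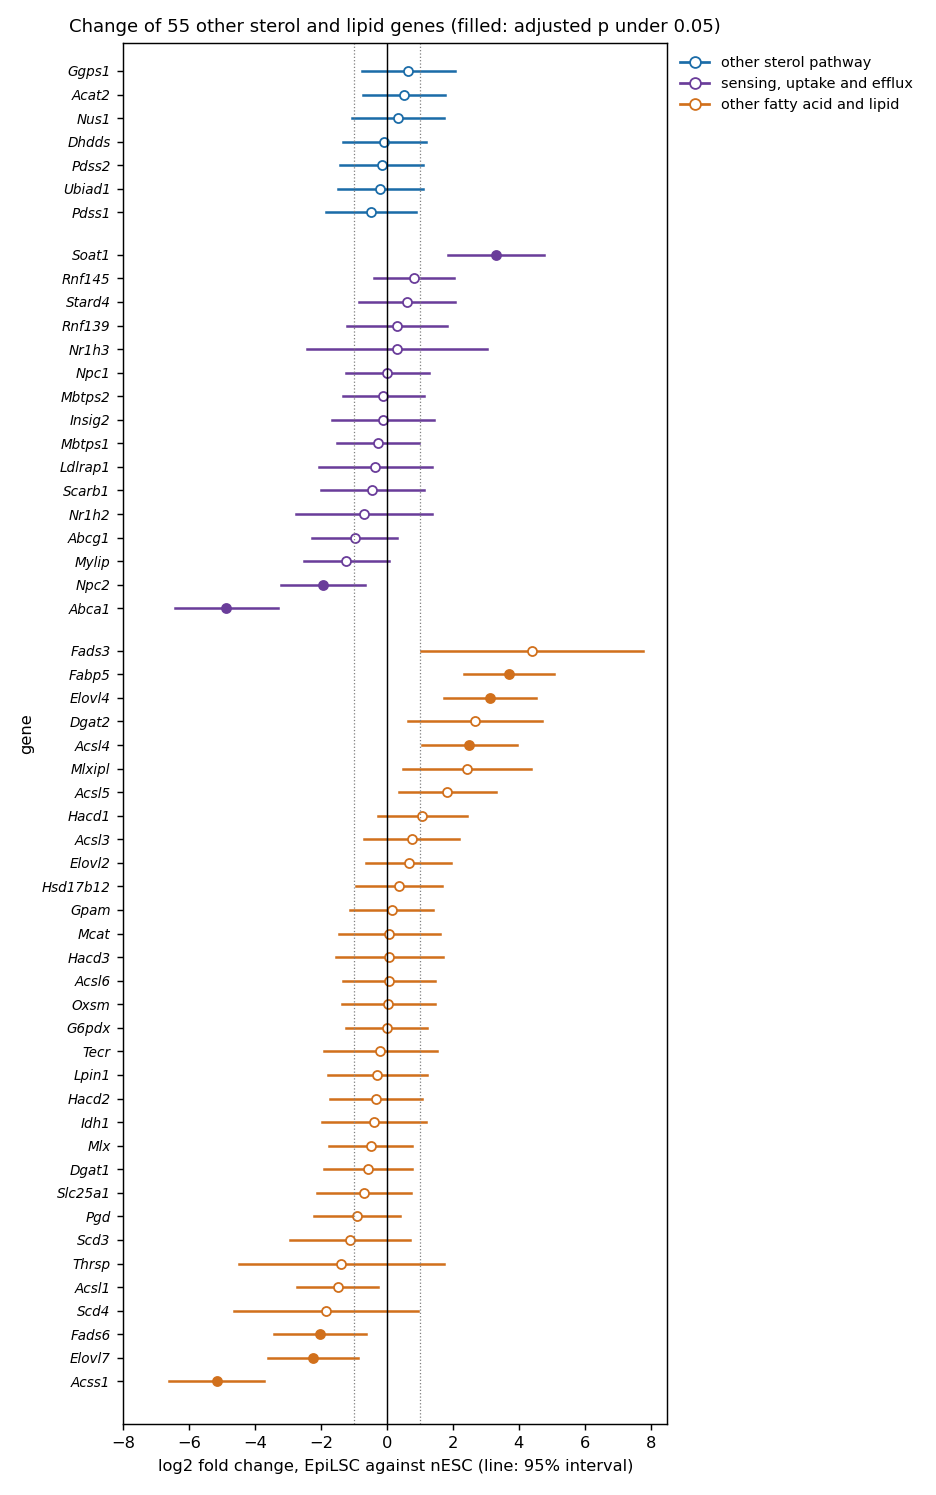
Log2 fold change of EpiLSCs against nESCs with 95% interval for 55 tested sterol and lipid genes outside the 34, by list and ordered by value. Filled points passed the test (adjusted p under 0.05): 4 lie right of 0, among them Soat1 at 3.30, and 5 left, among them Acss1 at -5.17.

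Markers of other cell types were also read. Of 8 measured primitive endoderm markers 2 rose (Foxa2 and Dab2) among 5 tested, where 7.67% of all tested genes rose. Gata4 (0.67, SE 1.16), Sox17 (0.97, SE 1.71) and Apob (1.93, SE 1.07) were not called by the authors' deposited table. Gata6 was below 0 there (-0.68, SE 2.30) and had no adjusted p. Sox7 (2.45, SE 3.96) and Apoa1 (0.79, SE 3.57) had no adjusted p in the authors' deposited table either. The summed implied level of the 8 markers was 57.3 normalized counts in nESCs and 382 in EpiLSCs. Of 6 feeder fibroblast markers 2 rose (Thy1 and Mmp2) among 5 tested, with sums of 99.6 and 421. Pdgfrb was below 0 in the authors' deposited table (-1.24, SE 0.997) and was not called. Its implied level was 73.9 in nESCs, most of the nESC sum, and 31.2 in EpiLSCs. Col1a1 and Col1a2 were above 0 but not called, and Col3a1, also above 0, had no adjusted p. Afp and Ttr of the endoderm list and the adipocyte marker Adipoq had no row in the table. Of the liver and fat cell markers, Alb, Plin1 and Pparg summed to 13.2 in nESCs and 11.7 in EpiLSCs. The part of such cells in the lipid genes was not tested. In bulk RNA, fewer cells with a transcript and less of it per cell cannot be told apart.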

How the data were processed

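RNA of 4 samples (2 nESCs, 2 EpiLSCs) entered strand-specific libraries after ribosomal RNA was removed, per the labels' protocols. The submitters' processing notes name TopHat2, HTSeq, DESeq2 1.8.2 and the build mm9. For the annotation and strand setting of the counting, the sources used here give nothing. The authors' deposited table gives a normalized signal (the mean over libraries of counts divided by size factors, not used as counts), a log2 fold change and SE, a Wald score, and a p-value with its adjusted p. The score equalled fold change over SE (largest gap 5.9e-14), and the adjusted p the Benjamini-Hochberg value over 16361 genes (gap 2.3e-15). The other 3935 genes were not counted as tested.

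No per-sample value was rebuilt. Symbols, exon lengths, GC content and 50-base words came from GENCODE M21 (GRCm38), with 20167 of 20296 IDs matched without version. mm9 coordinates are not given. Intervals are 95% normal intervals. Python 3.11.15, numpy 2.4.6, pandas 2.3.3 and scipy 1.17.1 were used. The adjustment and the test against a 2-fold change were tested on simulated data. Alternatives changed the genes adjusted over, the threshold, the null hypothesis, the scaling, the members and the gene length. All 34 genes are named, as are the called genes of 3 other lists and the markers; some genes of these lists are not reported here. Npc1, Abcg1, Pdss1, Ggps1 and genes at the relaxed threshold were picked for naming once their values were known. The genes and lists were chosen with earlier results of these data known.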

Additional observations from a re-analysis of the deposited data

How the results depend on the processing

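The count of 0 called among the 34 genes, the 4 regulators and the 7 other sterol genes stayed at 0 with no filter on low means, among genes whose mean was at least 100, against a 2-fold change, at an adjusted p under 0.1 and with centred fold changes. Among genes of sensing, uptake and efflux, 2 in place of 3 passed against a 2-fold change. Among other lipid genes 3 in place of 6 did, and at 0.1 (16.6% of tested genes) there were 10, with Mlxipl, Fads3, Acsl5 and Dgat2 added. These counts kept their values under the other settings. The sterol median of 0.95 ranged from 0.58 (precision-weighted mean) to 0.98 (centred), with 0.72 when the regulators were included. The fatty acid median ranged from -0.19 (weighted) to 0.02 (centred). The sequence-sharing setting was chosen after seeing the data, as was the use of these alternatives on the other lists. With longest transcripts in place of exon unions, the share of the summed level per length moved by over 1.5 times for Msmo1, Dhcr7 and Acss2 (3 of 34). No paired analysis was possible because the table has no value per sample, and fits with the line as a replicate block or without single samples were not run for the same reason. Precision is limited by the standard errors, never below 0.605 among tested genes.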
